A study of Homo sapiens with 4 samples.

Results

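The genes described here are 53 interferon-stimulated genes and genes of interferon signalling, taken by symbol from the 16813 genes with a value in at least 1 of 4 RNA sequencing libraries. Of the 53, 52 were listed in at least 1 library, 41 had enough counts to be tested, and 12 did not. The libraries came from PC9, a human lung adenocarcinoma line driven by mutant EGFR, and from PC9OR, a derivative of it that resists the EGFR inhibitor osimertinib, in 2 biological replicates per line. Both lines were labelled wild type, PC9 as control and PC9OR as osimertinib resistant, and both grew in RPMI medium with fetal bovine serum. Only 1 resistant line was sequenced, so drug resistance and whatever else separates the cultures cannot be told apart. Whether the resistant line is a clone, and whether drug was present when RNA was taken, are not given in the sources used here.

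Interferons are secreted antiviral proteins. Type I interferons bind the receptor pair IFNAR1 and IFNAR2, and interferon gamma binds IFNGR1 and IFNGR2; the kinases JAK1, JAK2 and TYK2 on these receptors then phosphorylate STAT proteins. A complex that holds STAT2 and IRF9 binds the interferon-stimulated response element (ISRE) in the promoters of interferon-stimulated genes, whose products block viral replication. RNA sensors such as RIGI and IFIH1, and the DNA sensor CGAS with its adaptor STING1, switch on interferon production in cells that meet foreign nucleic acid.

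The libraries held 23201307 (replicate 1) and 29062064 (replicate 2) expected counts from PC9, with 31948974 and 32203998 from PC9OR in the same order. Values of a gene are given in CPM, its count scaled to a common library size after TMM normalization, always with replicate 1 before replicate 2, and levels of different genes are compared in FPKM, which is scaled to transcript length. A count of 3, taken as the floor, equalled between 0.0936 and 0.128 CPM. The epithelial markers fixed for the check of the cell type (EPCAM, KRT8, KRT18, KRT19, CDH1, MUC1, CLDN4 and ELF3) were all listed in every library. They summed to 2239, 2559, 4948 and 4762 FPKM (PC9, then PC9OR). KRT18 had the highest mean FPKM in each line, with 752 and 859 in PC9 and 1762 and 1716 in PC9OR cells. KRT8, KRT18, KRT19 and CLDN4 rose in PC9OR cells, MUC1 and CDH1 fell, and EPCAM and ELF3 did not pass (edgeR's test, described below). Of 8 leukocyte markers, CD3E and CLEC4C were listed in no library, PTPRC had 1 count in 1 library, and the 8 summed to 7.67 and 5.91 FPKM in PC9 and 3.07 and 2.85 in PC9OR cells. CD68 made up most of that sum and fell in PC9OR cells (log2 fold change -1.10, edgeR adjusted p = 0.0158). The 8 fibroblast and endothelial markers summed to 6.72, 4.32, 1.04 and 1.10 FPKM in the same order, most of it CDH5, which fell by 2.57 on the log2 scale (edgeR adjusted p = 0.00529), while VWF was at 0 in 3 of the 4 libraries. The part of these markers in the results below was not tested. In bulk RNA, fewer cells of a type and less RNA per cell cannot be told apart.

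More of the 53 genes fell than rose in the resistant cells, and 20 of the 39 effector genes stayed below 1 FPKM in every library. Of the 41 tested genes, 13 were lower and 2 were higher in PC9OR cells at an adjusted p under 0.05 (quasi-likelihood test of edgeR, adjusted by Benjamini and Hochberg's method over all 13148 tested genes), and 26 did not pass. That is 31.7% lower and 4.88% higher, against a background of 20.8% lower and 15.6% higher, or 36.4% in either direction, among all tested genes. Of the 41, 6 were lower by more than 2-fold, 14.6% against a background of 11.6%, and 0 were higher by more than 2-fold, against a background of 6.13%. IFIT3, IFI16 and OASL, counted in the 13 and in the 6, reached 10 counts in both PC9 libraries but not in both PC9OR libraries. They thus entered the test through the line where they were high. At the threshold that the study used, more than 2-fold with an adjusted p under 0.001, edgeR and limma-trend called 0 members and 0 of all genes. DESeq2's Wald test called 5 members (IFIT3, IFI16, OAS3, SAMD9 and IFNAR2) there, 12.2% of the 41 against 13.2% of all genes. An unadjusted edgeR p under 0.05 was reached by 19 members, 46.3% against 50.6% of all genes. The median log2 fold change of the 41 was -0.39, against 0.01 for all tested genes (-0.29 against 0.07 with an offset for transcript length). Both PC9OR libraries were below both PC9 libraries for 22 of the 41 (background 38.2%) and above them for 7 (background 39.6%).

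The counts depended on which library was left out, falling without either PC9OR library for the members and for all genes, and for all genes rising without either PC9 library. Without PC9OR replicate 1, 5 members were called lower (11.9%, against 8.7% of all genes in that fit) and 0 higher (against 3.88%). Without PC9OR replicate 2 the counts were 6 (14.6%, against 8.82%) and 0 (against 3.9%). Without PC9 replicate 1 they were 15 (35.7%, against 23.1%) and 3 (7.14%, against 2833 of all 13480 tested genes), and without PC9 replicate 2 again 15 (against 28.9%) and 3 (against 29.0%). IFIT3, IFI16, OAS3, SAMD9 and IFNAR2 were called lower in each of these 4 fits. Each of the other 10 calls was lost without PC9OR replicate 1, and all of those except IFNAR1 without PC9OR replicate 2; OASL was also lost without PC9 replicate 1 and GBP2 without PC9 replicate 2. Transcript length also moved with the comparison, since the log2 fold change had a rank correlation of -0.34 with length across the 13148 genes, the difference between the PC9 replicates had one of -0.40, and that between the PC9OR replicates had one of -0.01. With an offset for length, one of the alternatives, 10 members were lower (24.4%, against 18.6% of all genes) and 2 were higher (4.88%, against 20.6%), and GBP3, JAK1, PARP14, DTX3L and USP18 no longer passed.

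**Figure D1:**
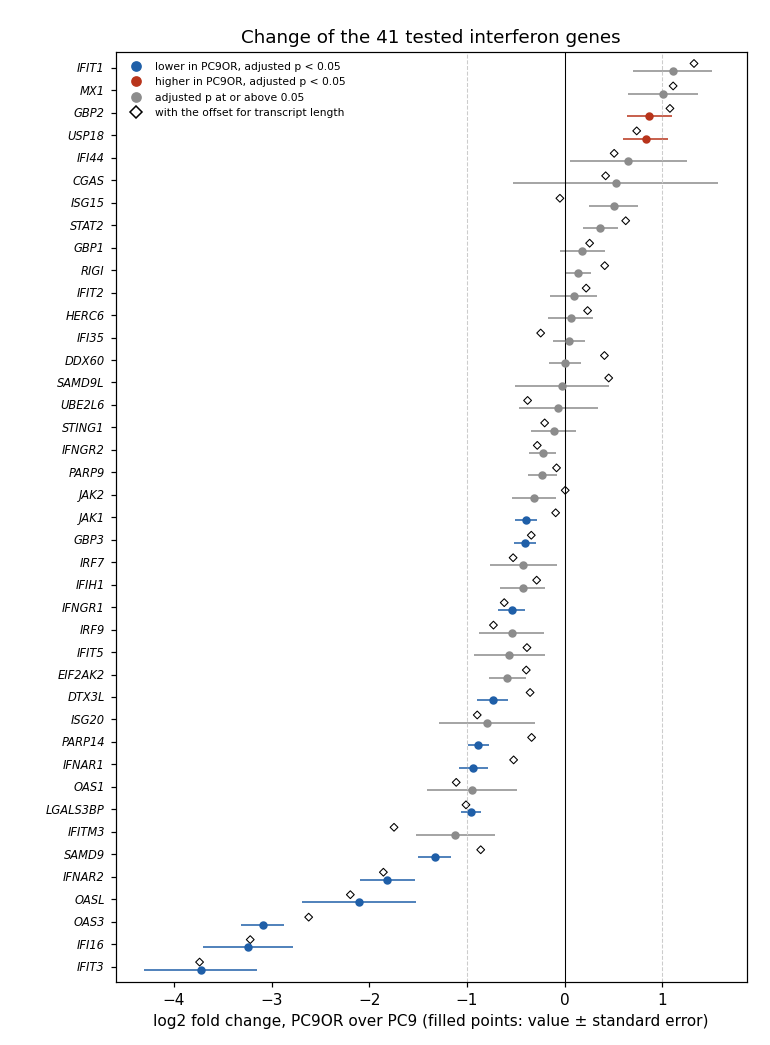
The log2 fold change of PC9OR over PC9 is drawn for the 41 tested genes, with filled points for the fit without correction, bars for the standard error and open diamonds for the fit with an offset for transcript length; dashed lines mark 2-fold change. IFIT3, IFI16 and OAS3 lie furthest to the left, at -3.73, -3.25 and -3.09, and the diamonds of PARP14 and JAK1 lie closer to 0 than their points.

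The levels spanned a wide range. In FPKM, 22 of the 53 genes were at 1 or more in every library and 20 were below 1 in every library. LGALS3BP, a secreted glycoprotein that binds galectins, was the most abundant, with 81.7 and 74.8 FPKM in the PC9 libraries and 39.6 and 39.2 in the PC9OR libraries. The 53 genes summed to 262 and 263 FPKM in PC9 and to 184 and 183 in PC9OR cells, and without LGALS3BP to 181, 188, 144 and 144. RSAD2, the antiviral enzyme viperin, was listed in no library. IFI6, IFI27, IFI44L, IFITM1, IFITM2, MX2, OAS2, HERC5, XAF1 and TRIM22 never exceeded 10 counts, and BST2 never exceeded 16. These 12 genes were not tested. Falls in them were not detectable at this depth, and no rise in PC9OR lifted them past the filter.

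**Figure D2:**
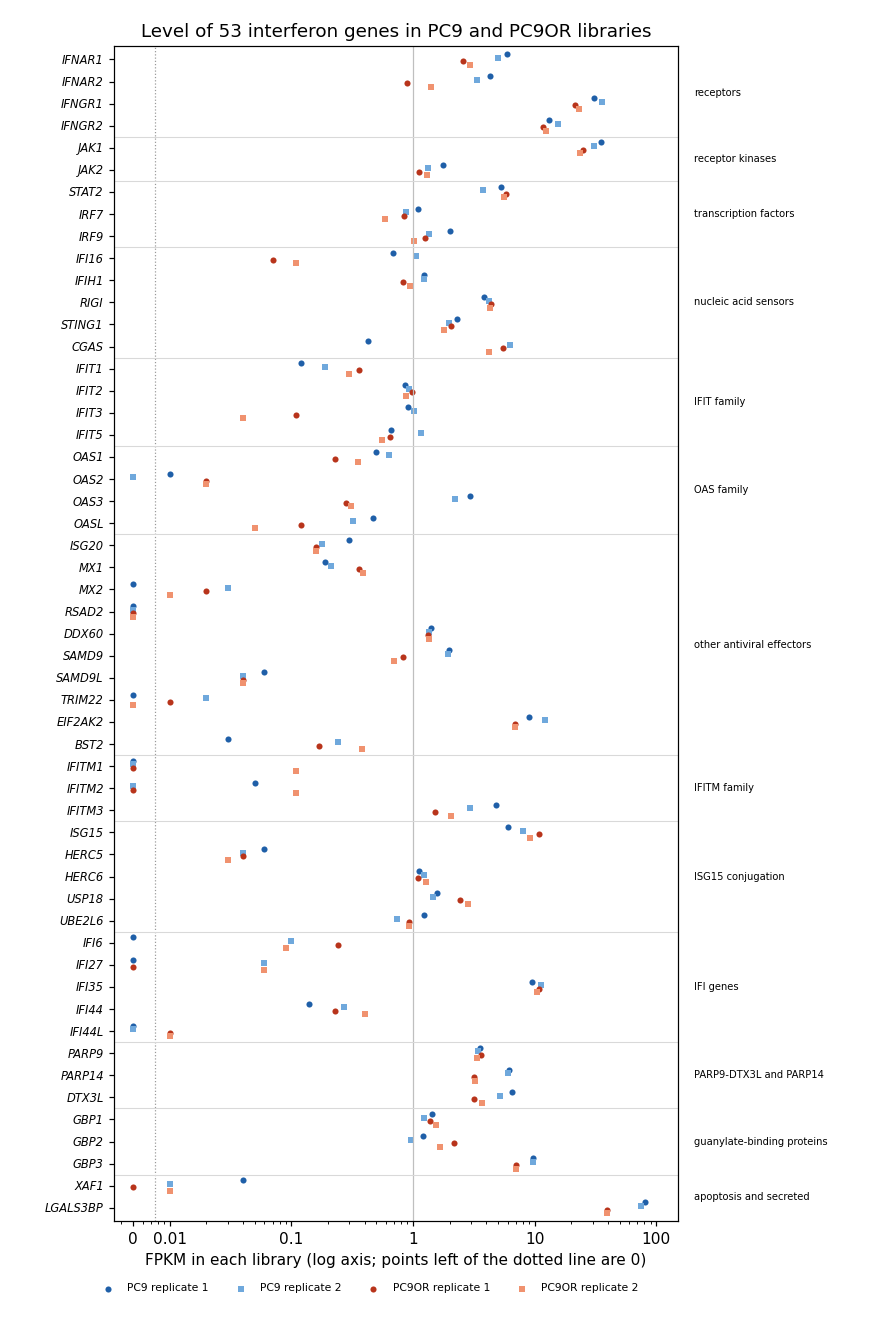
Each row is 1 of the 53 genes, grouped by role, and each point is the FPKM of 1 library on a log axis, with zeros drawn left of the dotted line and a grey line at 1 FPKM. The receptor and kinase genes lie between 0.89 and 35.5 FPKM, while IFI27, IFI44L, MX2, OAS2 and TRIM22 lie at or below 0.06.

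Of the 4 receptor genes 3 were lower in the resistant line (75%, against 20.8% of all tested genes), among them both chains of the type I interferon receptor. IFNAR2, the chain that binds interferon with high affinity, had 13.8 and 11.1 CPM in PC9, against 2.87 and 4.19 in PC9OR. The means were 12.5 ± 1.87 and 3.53 ± 0.931 CPM (SD, n = 2), a 3.52-fold difference larger than the spread between replicates (log2 fold change -1.82, standard error 0.279, edgeR adjusted p = 0.0116). IFNAR1, the partner chain, measured 50.03 and 43.2 CPM in PC9, with 22.4 and 26.4 in PC9OR. It fell by 0.94 on the log2 scale (edgeR adjusted p = 0.0122), and by 0.52 with the offset for length (edgeR adjusted p = 0.0236). For each of these 2 chains both PC9OR libraries lay below both PC9 libraries, as they did for 38.2% of all tested genes. IFNGR1, the ligand-binding chain of the interferon gamma receptor, had 86.8 and 103 CPM in the PC9 libraries and 61.7 and 68.2 in those of PC9OR, a fall of 0.54 (edgeR adjusted p = 0.0341). IFNGR2, its signalling chain, had 39.1 and 47.0 CPM against 35.5 and 38.3, and did not pass (log2 fold change -0.22, edgeR adjusted p = 0.245, and -0.36 without PC9 replicate 1, edgeR adjusted p = 0.0344).

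IFNAR2, IL10RB, IFNAR1 and IFNGR2 lie side by side on chromosome 21 of GRCh37, from 34577587 to 34851655, and did not move together. IL10RB, the shared chain of the receptors for interferon lambda and interleukin 10, sits between the type I chains and rose. It had 18.1 and 18.4 CPM in PC9, against 26.3 and 26.1 in PC9OR (log2 fold change 0.52, edgeR adjusted p = 0.0308). The 30 tested genes around the cluster had a median log2 fold change of 0.10. An annotated read-through transcript joins IFNAR2 to IL10RB, and 15.2% of the 50-base words of IFNAR2 and 20.7% of those of IL10RB occur in another gene, so the split of reads between them is uncertain.

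Of the 2 receptor kinases among the 53 genes 1 passed the test, JAK1, and of the 3 transcription factors 0 did, against 36.4% of all tested genes. JAK1 measured 243 and 216 CPM in PC9, with 177 and 172 in PC9OR, a fall of 0.39 (edgeR adjusted p = 0.0486), and with the offset for length its value was -0.09 (edgeR adjusted p = 0.468). JAK2, the kinase of the interferon gamma receptor, had 12.6 and 9.57 CPM against 8.18 and 9.66, so the lines overlapped. STAT2 had 33.2 and 24.3 CPM against 37.4 and 36.5 and did not pass (log2 fold change 0.36, edgeR adjusted p = 0.162), but it rose with the offset for length (0.62, edgeR adjusted p = 0.0193). Without PC9 replicate 1 its value was 0.60 (edgeR adjusted p = 0.0109). IRF9, the DNA-binding partner of STAT2, had 4.44 and 3.05 CPM against 2.81 and 2.31. IRF7, the factor that amplifies interferon production, had 2.94 and 2.39 CPM against 2.31 and 1.66. For both, the PC9OR libraries were lower but the difference did not pass (edgeR adjusted p = 0.235 and 0.362), and 20.1% of the 50-base words of IRF9 occur in another gene. TYK2, of the wider pathway, had 46.6 and 35.5 CPM against 42.6 and 42.5, and the lines overlapped (log2 fold change 0.05, edgeR adjusted p = 0.811).

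Of the 5 nucleic acid sensors 1 passed the test, against 36.4% of all tested genes. IFI16, a nuclear DNA sensor, had 2.56 and 4.02 CPM in the PC9 libraries and 0.281 and 0.406 in those of PC9OR. It was 9.48-fold lower (log2 fold change -3.25, standard error 0.459, edgeR adjusted p = 0.0102), and every library of one line lay apart from those of the other. Next to it on chromosome 1 of GRCh37, AIM2, a cytosolic DNA sensor of the same family, had 7 and 18 counts in PC9 and 0 in both PC9OR libraries. Against a floor of 3 counts over both PC9OR libraries it was at least 10.2-fold lower, a value of counts alone, since AIM2 was not tested. The bound pools the PC9 libraries, at 0.299 and 0.624 CPM, and would be smaller from PC9 replicate 1 alone. The 30 tested genes around the pair had a median log2 fold change of -0.11.

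Neither RNA sensor passed the test. RIGI had 25.2 and 28.4 CPM in PC9, against 29.4 and 29.8 in PC9OR (log2 fold change 0.14, edgeR adjusted p = 0.408). Of its 50-base words 42.5% occur in another annotated gene. Its expected counts were whole numbers in every library (591 and 819 in PC9, 941 and 952 in PC9OR), so they show no split of reads. IFIH1, the sensor of long double-stranded RNA, had 6.01 and 6.24 CPM against 4.21 and 4.88 (log2 fold change -0.43, edgeR adjusted p = 0.191). STING1 had 6.31 and 5.44 CPM against 5.65 and 5.22, and the lines overlapped (edgeR adjusted p = 0.720).

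CGAS could not be placed, because the PC9 replicates differed 14.9-fold. It had 1.02 CPM in PC9 replicate 1 and 15.3 in replicate 2, against 13.2 and 10.3 in the PC9OR libraries. Only 11 of the 10196 tested genes with a mean of 5 CPM or more in PC9 had a gap between the PC9 replicates as large as this. The log2 fold change was 0.52 (edgeR adjusted p = 0.717), 3.50 without PC9 replicate 2 (edgeR adjusted p = 0.00193) and -0.38 without PC9 replicate 1 (edgeR adjusted p = 0.184). MTO1, the next listed gene on the chromosome, had 36.6 and 37.1 CPM in the same PC9 libraries.

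The IFIT genes, whose products bind viral RNA and block its translation, split within a single cluster. IFIT2, IFIT3, IFIT1 and IFIT5 lie in this order on chromosome 10 of GRCh37, from 91043451 to 91181362. IFIT3 measured 3.16 and 3.57 CPM in PC9, with 0.375 and 0.125 in PC9OR, the largest fall among the tested members at 13.3-fold (log2 fold change -3.73, standard error 0.576, edgeR adjusted p = 0.0117). Its value was -4.70 without PC9OR replicate 1 and -3.15 without PC9OR replicate 2. The PC9OR values of IFIT3 rest on 12 and 4 counts, and replicate 2 lies near the floor, so the size of its fall is uncertain. IFIT1, a partner of IFIT3 in RNA binding, had 0.725 and 1.18 CPM against 2.22 and 1.91, with no overlap between the lines, and did not pass (log2 fold change 1.10, edgeR adjusted p = 0.0875, and 1.49 without PC9 replicate 2, edgeR adjusted p = 0.0380). IFIT2 had 4.14 and 4.54 CPM against 4.87 and 4.38, and the lines overlapped. IFIT5 had 3.67 and 6.62 CPM against 3.71 and 3.25, again with overlap, and passed without PC9 replicate 1 (-0.93, edgeR adjusted p = 0.0342). The 30 tested genes around the cluster had a median log2 fold change of 0.08.

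The promoters of 3 of these neighbours carry the same element. Printed here, on the strand of the gene and with ISRE cores in capitals (GAAANNGAAA, or TTTCNNTTTC when the core lies on the opposite strand), are the upstream stretches of the IFIT genes found in the RefSeq promoter table of GRCh38.p14, because they share letters while only IFIT3 passed the test. They lie at chr10:89392497-89392539, chr10:89327831-89327894 and chr10:89414513-89414567, all on the plus strand.
IFIT1: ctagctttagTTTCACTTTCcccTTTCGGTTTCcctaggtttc
IFIT3: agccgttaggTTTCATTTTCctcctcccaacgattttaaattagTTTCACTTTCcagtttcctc
IFIT5: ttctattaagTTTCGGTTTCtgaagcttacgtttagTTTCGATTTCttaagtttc
The core TTTCACTTTC stands in both IFIT1 and IFIT3, and TTTCGGTTTC in both IFIT1 and IFIT5. A match of letters is a description and does not show that a factor binds there.

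**Figure D3:**
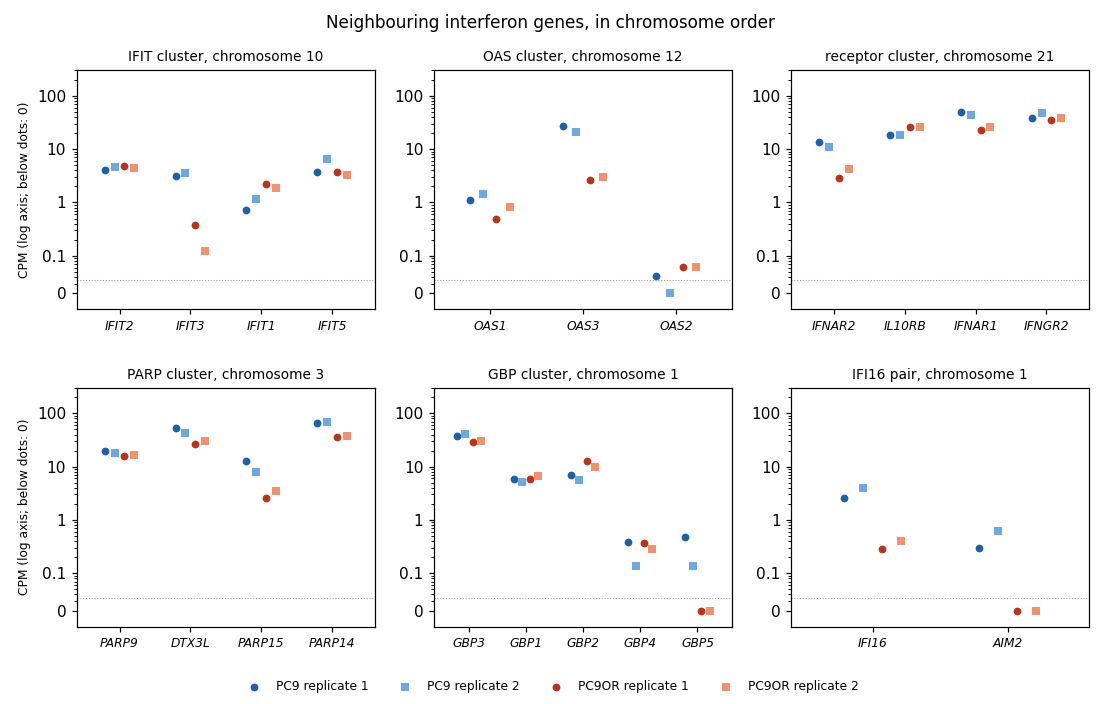
CPM on a log axis is drawn for each library, by gene in chromosome order, for 6 groups of neighbouring interferon genes, with zeros below the dotted line. In the IFIT cluster IFIT3 alone is lower in both PC9OR libraries by more than the spread between replicates, in the receptor cluster IL10RB lies higher in PC9OR libraries between lower IFNAR2 and IFNAR1, and AIM2 and GBP5 are at 0 in both PC9OR libraries.

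The OAS genes make a second messenger when they meet double-stranded RNA. Of the 3 that were tested OAS3 and OASL fell (66.7%, against 20.8% of all tested genes). OAS3 had 27.3 and 20.98 CPM in the PC9 libraries and 2.65 and 3.001 in those of PC9OR. The means were 24.1 ± 4.47 and 2.83 ± 0.246 CPM (SD, n = 2), an 8.52-fold difference (log2 fold change -3.09, standard error 0.221, edgeR adjusted p = 0.00401, and -2.62 with the offset for length). OAS3 was the most abundant OAS gene in PC9, at 2.95 and 2.21 FPKM, and at 0.28 and 0.31 FPKM it lay between the OAS1 values of 0.23 and 0.35 in PC9OR cells. OASL, an OAS-like protein without the enzyme activity, had 1.28 and 0.901 CPM against 0.343 and 0.156 and fell by 2.10 (edgeR adjusted p = 0.0443), while DESeq2's Wald test gave a log2 fold change of -2.14 that did not pass (adjusted p = 0.0785), and its value ran from -2.76 without PC9OR replicate 1 to -1.64 without PC9OR replicate 2. OAS1, the neighbour of OAS3 on chromosome 12, had 1.11 and 1.42 CPM against 0.499 and 0.813 and did not pass (log2 fold change -0.95, edgeR adjusted p = 0.157).

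The stretch upstream of OAS3, at chr12:112938321-112938473 of GRCh38.p14 on the plus strand, holds an ISRE core at each end, the second beginning 12 bases before the start of the gene. It is shown beside that of DDX60, at chr4:168318786-168318850 on the minus strand, because both carry the core GAAACTGAAA while OAS3 fell and DDX60 did not pass.
OAS3: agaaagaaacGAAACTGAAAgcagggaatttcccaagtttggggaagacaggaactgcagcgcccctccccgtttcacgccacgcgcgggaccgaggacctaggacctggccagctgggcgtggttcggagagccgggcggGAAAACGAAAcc
DDX60: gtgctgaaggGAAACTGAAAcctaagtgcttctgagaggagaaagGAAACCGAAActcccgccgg
DDX60, a helicase linked to RNA sensing, measured 11.9 and 11.7 CPM in PC9, with 11.6 and 12.04 in PC9OR, a log2 fold change of 0.00 (standard error 0.161, edgeR adjusted p = 0.990). Its paralog and neighbour DDX60L had 62.1 and 56.4 CPM against 22.6 and 22.6 and fell by 1.39 (edgeR adjusted p = 0.00479).

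Of the 6 tested genes among the other antiviral effectors 1 passed, and it was lower (16.7%, against 20.8% of all tested genes). SAMD9, a restriction factor for poxviruses, had 18.9 and 18.96 CPM in the PC9 libraries and 8.05 and 6.97 in those of PC9OR, and was 2.52-fold lower (log2 fold change -1.33, standard error 0.169, edgeR adjusted p = 0.00846). With the offset for length SAMD9 fell by 0.86 (edgeR adjusted p = 0.0168). SAMD9L, next to it on chromosome 7, had 0.512 and 0.416 CPM against 0.437 and 0.469, so the lines overlapped at a low level. MX1, a GTPase that traps viral nucleocapsids, had 0.810 and 0.971 CPM against 1.75 and 1.84. The PC9OR values lay above the PC9 values without overlap, and the difference did not pass (log2 fold change 1.01, edgeR adjusted p = 0.0823). EIF2AK2, the kinase PKR that halts translation on double-stranded RNA, had 50.2 and 70.9 CPM against 39.8 and 40.9 (log2 fold change -0.59, edgeR adjusted p = 0.0638). The same gene passed with DESeq2's Wald test (-0.60, adjusted p = 0.0191), without PC9 replicate 1 (-0.82, edgeR adjusted p = 0.003499) and without PC9 replicate 2 (-0.33, edgeR adjusted p = 0.0270). ISG20, an RNA exonuclease, had 0.810 and 0.555 CPM against 0.375 and 0.406 (edgeR adjusted p = 0.246). IFITM3, a membrane protein that blocks viral entry, had 3.71 and 2.29 CPM against 1.16 and 1.59 (log2 fold change -1.12, edgeR adjusted p = 0.0829, and -1.75 with the offset for length, edgeR adjusted p = 0.0366, and -1.45 without PC9 replicate 2, edgeR adjusted p = 0.0286). Of the 50-base words of IFITM3 15.7% occur in another gene, mostly IFITM1. Its expected counts were whole numbers (87 and 66 in PC9, 37 and 51 in PC9OR), so they show no split of reads.

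ISG15 is a ubiquitin-like protein that is joined to other proteins by enzymes that include UBE2L6 and HERC5 and removed by USP18, which also inhibits signalling from IFNAR2. USP18 was the gene of this system that rose. It had 4.27 and 4.02 CPM in PC9, against 6.74 and 8.003 in PC9OR (log2 fold change 0.83, standard error 0.231, edgeR adjusted p = 0.0445, and 0.74 with the offset for length, edgeR adjusted p = 0.0540). With the replicate block USP18 did not pass (log2 fold change 0.83, edgeR adjusted p = 0.0618). Of the 50-base words of USP18 11.8% occur in another gene, mostly USP41. Its expected counts were whole or nearly so (100 and 116 in PC9, 216 and 255.98 in PC9OR), so little split of its reads shows in them. ISG15 had 4.65 and 6.17 CPM against 8.24 and 7.10 and did not pass (log2 fold change 0.50, edgeR adjusted p = 0.166), and with the offset for length its value was -0.05. HERC6 overlapped between the lines at between 5.89 and 7.16 CPM (edgeR adjusted p = 0.849), and UBE2L6 at between 1.21 and 2.00 CPM (edgeR adjusted p = 0.906). Of the IFI genes, IFI35, a cytosolic protein, had 15.2 and 18.3 CPM against 17.4 and 17.2. IFI44 had 0.299 and 0.624 CPM against 0.531 and 0.938. Both overlapped between the lines.

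PARP9, DTX3L and PARP14 lie together on chromosome 3 of GRCh37 and encode ADP-ribosyltransferases and the ubiquitin ligase that pairs with PARP9. PARP14 measured 65.8 and 67.3 CPM in PC9, with 35.3 and 36.7 in PC9OR, a fall of 0.89 (edgeR adjusted p = 0.00797). DTX3L had 52.5 and 42.6 CPM against 26.1 and 30.8, a fall of 0.74 (edgeR adjusted p = 0.0253). These are long transcripts, of 7708 and 5768 bases, and with the offset for length the values were -0.34 and -0.35 (edgeR adjusted p = 0.0975 and 0.0745). PARP9, whose 5′ end overlaps that of DTX3L, had 20.05 and 17.9 CPM against 16.1 and 16.3, did not overlap between the lines and did not pass (edgeR adjusted p = 0.256). PARP15, in the same cluster, had 12.6 and 7.87 CPM against 2.59 and 3.50 and fell by 1.74 (edgeR adjusted p = 0.0185). The 30 tested genes around the cluster had a median log2 fold change of 0.11.

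**Figure D4:**
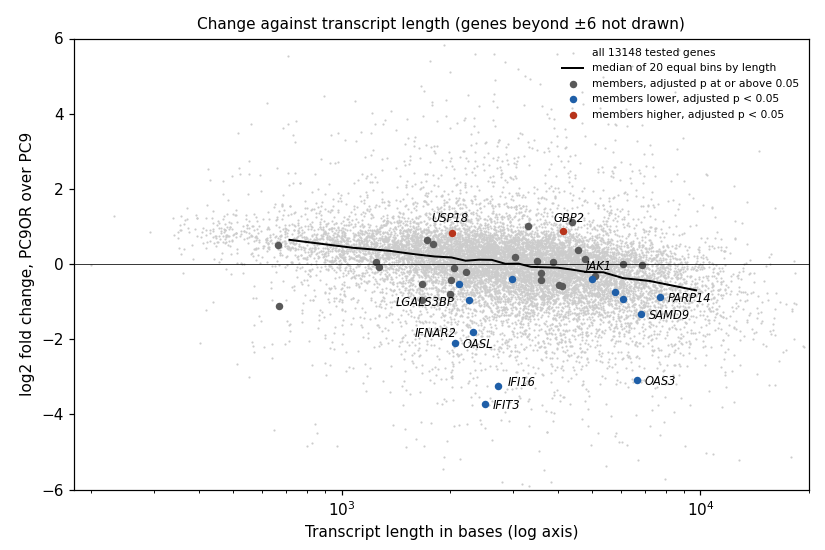
The log2 fold change is drawn against transcript length on a log axis for the 13148 tested genes (grey), with the median of equal bins by length (line) and the 41 tested members (coloured). The line falls from short to long transcripts; PARP14 and JAK1 lie near it, and IFIT3, IFI16, OAS3, OASL and IFNAR2 lie well below it.

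The guanylate-binding proteins are GTPases that attack the vacuoles of intracellular pathogens, and their genes lie in a row on chromosome 1. GBP2 rose, from 6.82 and 5.69 CPM to 12.8 and 10.0 (log2 fold change 0.87, standard error 0.230, edgeR adjusted p = 0.0398). GBP3 fell slightly, with 37.8 and 40.6 CPM against 29.2 and 30.0 (log2 fold change -0.40, edgeR adjusted p = 0.0466, and 0.0616 with the offset for length). GBP1 had 5.89 and 5.20 CPM against 5.84 and 6.72, and the lines overlapped. GBP4 did not exceed 0.384 CPM (edgeR adjusted p = 0.715), and GBP5, which was not tested, had 11.3 and 3.97 counts in PC9 and 0 in both PC9OR libraries. GBP1, GBP2 and GBP3 share 7.76%, 8.82% and 4.78% of their 50-base words with other genes. The 30 tested genes around the row had a median log2 fold change of 0.09.

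LGALS3BP stood apart from the rest by its level. It had 247 and 231 CPM in the PC9 libraries and 122 and 124 in those of PC9OR, with means of 239 ± 11.3 and 123 ± 0.880 (SD, n = 2). Its change on the log2 scale was -0.96 (standard error 0.104, edgeR adjusted p = 0.00659) and -1.01 with the offset for length, and the lines were separated by more than the spread between replicates.

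The ISRE was found upstream of members that fell and of members that did not. A window from 250 bases before to 50 bases after the start was found in the RefSeq table for 41 of the 53 genes, and an ISRE core (GAAANNGAAA, both strands) was in a window of 26 of them, 63.4%, against 4.38% of all 27305 genes in the table. Among the 31 effector genes with a window 25 held the core, and among the 10 genes of receptors, kinases, factors and sensors 1 did, IFIH1. The gamma-activated sequence (TTCNNNGAA) was in a window of 10 members, 24.4%, against 9.38% of all genes. Of the 26 members with an ISRE core 19 were tested, with 7 lower (36.8%, against 20.8% of all tested genes), 0 higher (against 15.6%) and 12 not passing, and a median log2 fold change of -0.57. Of the 15 members with a window and no core 14 were tested, with 4 lower (28.6%), 0 higher and 10 not passing, and a median of -0.27. Of the 12 members with no window 8 were tested, with 2 lower, 2 higher (USP18 and GBP2) and 4 not passing, and a median of -0.01. IFIT2, OAS2, OASL, USP18, GBP2, IFNAR2, IRF7, MX2, IFITM2, TRIM22, STING1 and CGAS had no window in the table. Stretches of IFI6, near 0 in both lines, and ISG15, which did not pass, are shown with those of SAMD9 and LGALS3BP, which fell. They come from chr1:1013374-1013409 (plus strand), chr1:27672266-27672358 (minus), chr7:93118096-93118125 (minus) and chr17:78979962-78979991 (minus) of GRCh38.p14.
ISG15: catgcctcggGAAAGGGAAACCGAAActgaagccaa
IFI6: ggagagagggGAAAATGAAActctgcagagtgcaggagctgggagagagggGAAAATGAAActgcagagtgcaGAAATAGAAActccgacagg
SAMD9: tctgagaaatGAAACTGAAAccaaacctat
LGALS3BP: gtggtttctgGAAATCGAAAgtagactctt
ISG15 holds 2 cores that overlap, IFI6 holds 3, and the single core of SAMD9 has the same letters as the first core of OAS3 and of DDX60. IFI6 had 0 and 3 counts in the PC9 libraries and 8 and 3 in the PC9OR libraries.

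The wider pathway, 72 further genes of interferon sensing, signalling and response taken as a whole list, also held more lower than higher genes. Of the 51 that were tested, 18 were lower and 6 higher in PC9OR cells (35.3% and 11.8%, against backgrounds of 20.8% and 15.6%), and 27 did not pass. Without PC9OR replicate 1 the counts were 5 lower (9.09%, against 8.7% of all genes in that fit) and 3 higher (5.45%, against 3.88%), and without PC9OR replicate 2 they were 4 (7.27%, against 8.82%) and 1 (1.82%, against 3.9%). Without PC9 replicate 2 they were 24 (46.2%, against 28.9%) and 10 (19.2%, against 29.0%). The median log2 fold change of the 51 was -0.37, against 0.01 for all tested genes (-0.21 against 0.07 with the offset for length).

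Of the 8 interferon genes in the list, 6 were listed in no library, and IFNB1, the main type I interferon of non-immune cells, had 1 count in 1 PC9OR library. IFNE, an interferon of epithelia, had 1.71 and 1.25 CPM in PC9, against 0.343 and 0.406 in PC9OR and fell by 1.96 (edgeR adjusted p = 0.0275). IFNLR1, the specific chain of the interferon lambda receptor, had 21.7 and 17.5 CPM against 15.2 and 14.4 and did not pass (edgeR adjusted p = 0.118, and 0.0197 without PC9 replicate 2).

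Adaptors and regulators gave further changes of more than 2-fold. TICAM1, the adaptor TRIF of the receptor TLR3, measured 11.9 and 5.89 CPM in PC9, with 1.75 and 1.44 in PC9OR, and was 5.58-fold lower (log2 fold change -2.48, edgeR adjusted p = 0.0146). Without PC9 replicate 1 its value was -1.89. SOCS3, an inhibitor of cytokine receptors, had 67.0 and 65.5 CPM against 34.3 and 31.2 and fell by 1.02 (edgeR adjusted p = 0.00699, and by 0.99 with the offset for length). SOCS1, the related inhibitor of JAK kinases, stayed below 1 CPM in every library (edgeR adjusted p = 0.332). MAVS, the adaptor of RIGI and IFIH1, had 857 and 606 CPM against 431 and 432 and fell by 0.76 (edgeR adjusted p = 0.0330), and with the offset for length its value was 0.10. STAT3, a transcription factor of cytokine receptors, had 138 and 131 CPM against 82.3 and 76.97 and fell by 0.76 (edgeR adjusted p = 0.0102).

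Among the other interferon-stimulated genes of the wider list, APOBEC3F and PML fell and LY6E rose. APOBEC3F, a cytidine deaminase that restricts retroviruses, had 104 and 55.7 CPM in the PC9 libraries and 17.9 and 20.8 in those of PC9OR (log2 fold change -2.04, edgeR adjusted p = 0.0120). Its neighbour APOBEC3C rose, with 67.2 and 65.6 CPM against 121 and 129 (log2 fold change 0.91, edgeR adjusted p = 0.00731). Reads of APOBEC3F are uncertain, since 12.03% of its 50-base words occur in another gene, mostly APOBEC3G. PML, the scaffold of nuclear bodies, had 30.2 and 14.9 CPM against 5.87 and 5.81 (log2 fold change -1.94, edgeR adjusted p = 0.0178, and -1.36 without PC9 replicate 1). LAMP3, a lysosomal membrane protein, had 5.80 and 4.13 CPM against 2.22 and 2.53 and fell by 1.06 (edgeR adjusted p = 0.0492, and 0.0519 with the offset for length). LY6E, a surface protein that modulates viral entry, had 36.3 and 36.9 CPM in PC9, against 128 and 123 in PC9OR, the largest rise of the list (log2 fold change 1.78, standard error 0.108, edgeR adjusted p = 0.00327).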

How the data were processed

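PC9 and PC9OR libraries, 2 of each, were analysed. The authors prepared them with a stranded kit and removed rRNA, adapter and low-quality reads with SOAP. The submitters' processing notes list Bowtie2 2.2.5, RSEM 1.2.12 and GRCh37; whether counting used strand is not given in the sources used here. The authors deposited, per Entrez gene and library, an expected count (an estimated number of reads, not normalized) and an FPKM value, with a transcript length; only genes above 0 counts are listed, and an absent gene was given 0. Symbols came from RefSeq by Entrez identifier (99.66% matched), positions from GENCODE lifted to GRCh37, and promoter windows from RefSeq on GRCh38.p14.

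Expected counts were rounded, and edgeR 4.0.16 under R 4.3.3 was run (TMM, filterByExpr, glmQLFit, glmQLFTest, no block) over all 13148 genes kept by the filter, and a gene was called at a Benjamini-Hochberg adjusted p under 0.05. The study names DEGseq, which was not installed. Standard errors were derived from the fold change and the F statistic. The replicates were labelled biological; whether they came from separate cultures is not given, so p-values measure the spread between these libraries, and 2 against 2 allows no exact permutation p below 0.333. Within lines, libraries differed by more than counting noise (chi-square over its degrees of freedom, 65.5 in PC9 and 9.93 in PC9OR, genes with at least 20 counts). Floors cover counting error only.

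Alternatives were DESeq2 1.42.0 (size factors and Wald test), library totals, limma-trend (limma 3.58.1) of FPKM values after log2 with a pseudocount of 1 or 0.1, other count filters, an offset for transcript length fitted per library with mgcv 1.9.3, the replicate block, and each library left out. On libraries simulated for PC9OR against PC9 with 200 genes changed 4-fold, edgeR called 81.5% of them among 12933 genes with 13 false calls. With a length trend added to both simulated PC9OR libraries alike, edgeR without the offset called 92.5% with 2691 false calls among 12952 genes. With the offset it called 84% with 17 false calls. In the data the trend also lay between the PC9 replicates (rank correlation -0.40), so these simulated counts do not describe the main fit. The members and gene lists were chosen with earlier results of these data known. Genes were named where they passed the threshold, and receptors, kinases, factors and sensors whatever their values; the other members are given for completeness. IL10RB, STAT3, MAVS, APOBEC3C, AIM2, GBP4, GBP5 and PARP15 were chosen after their values were seen. A few single genes of the wider list are not reported here. Shared words are 50-base words of GENCODE transcripts found in another gene.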

Additional observations from a re-analysis of the deposited data

How the results depend on the processing

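The rule of more than 2-fold with an adjusted p under 0.05 was chosen after seeing the data. Of the 15 members called, 8 kept their call under every normalization, tool, filter, offset and block tried with all 4 libraries (IFIT3, IFI16, OAS3, SAMD9, LGALS3BP, IFNAR1, IFNAR2 and IFNGR1; a filter of at least 10 counts in every library left out IFIT3, IFI16 and OASL), and 0 reversed. In the fits without a library, the lone sample of a line was assumed to vary like the other line. With edgeR, more than 2-fold with an adjusted p under 0.001 gave 0 higher and 0 lower for members and the wider pathway. With an adjusted p under 0.05, 0 of the 41 tested members were higher and 6 lower. Of the 51 tested genes of the wider pathway, 2 were higher and 7 lower, against 6.13% and 11.6% of all tested genes. DESeq2's Wald test called 5 members and 8 genes of the wider pathway at the stricter rule, against 13.2% of all tested genes. Of the 2 members called higher, GBP2 lost its call with limma-trend on log2(FPKM + 0.1). USP18 lost its call with the replicate block and with the length offset. With each library left out, members called higher ranged from 0 to 3 and lower from 5 to 15, and wider pathway genes from 1 to 10 and from 4 to 24, and the cause was not tested. The members' median of -0.39 became -0.21 with limma-trend on log2(FPKM + 1), -0.22 without a filter, -0.31 with at least 10 counts in every library, -0.29 with the length offset and -0.29 with the length offset and the replicate block, and ranged from -0.36 to -0.27 with a library left out.

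Genes near 0 changed sign. With the length offset, and with the replicate block added to it, IFI35 was at -0.25 and -0.25, ISG15 at -0.049 and -0.055, SAMD9L at 0.45 and 0.45, and JAK2 at 0.0054 and 0.0050. DDX60 was at -0.0092 with DESeq2's size factors, -0.0091 with its Wald test, -0.0025 with library totals, and -0.018 and -0.030 with limma-trend and a pseudocount of 1 and 0.1. With a library left out the values ran from -0.38 to 3.50 for CGAS, -0.024 to 0.038 for DDX60, -0.070 to 0.19 for HERC6, -0.092 to 0.17 for IFI35, -0.19 to 0.11 for SAMD9L, -0.15 to 0.26 for TYK2 and -0.40 to 0.33 for UBE2L6.

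The replicate numbers were not taken as pairs, since same-numbered libraries deviated from their line's mean with a correlation of 0.06 and no label pairs them. With the replicate block, 12 of the 15 calls were kept, and those of USP18, GBP3 and JAK1 were lost. EIF2AK2 passed with the block (adjusted p = 0.0239), RIGI passed with the block and the length offset (0.42, adjusted p = 0.0408), and MX1 passed with at least 10 counts in every library (adjusted p = 0.0445). Depth limits the 12 untested genes.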
